A study of Mus musculus with 2 samples.

Results

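The carriers that move organic cations and carnitine across cell membranes were followed in the mouse ureter, with Slc47a1 as the gene of main interest. The group holds 6 genes of the 29982 on the arrays: Slc47a1 and Slc47a2, Slc22a2 and Slc22a3, and Slc22a4 and Slc22a5. They were found by the gene name of their probes, and each was read by 1 probe. The group was chosen by the log2 ratio of Slc47a1 on these same arrays, which was already known, so all values of the 6 genes are descriptions without a test. The study compared ureters of Pparg-cKO embryos with those of control embryos at E16.5, all on the NMRI background. Pparg-cKO embryos had the genotype Pax2-cre/+; Pparg(fl/fl), in which a cre recombinase acts in the nephric duct, the ureteric epithelium and the collecting ducts of the kidney and deletes exons 2 and 3 of Pparg, the gene of a lipid-sensing nuclear receptor. Controls were labelled Pparg(fl/?), so that they also carried a floxed allele, and were littermates that lacked the cre. The female array (array 1) compared pools of ureters from female embryos and the male array (array 2) pools from male embryos, with 1 Pparg-cKO pool and 1 control pool on each and the dyes exchanged. The whole ureter was used, so that mesenchymal cells, in which Pax2-cre is not described to act, contributed to every pool.

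Organic cations such as metformin, creatinine, histamine and thiamine cross epithelia in 2 steps. Carriers of the SLC22 family let them into the cell along the membrane potential, and carriers of the SLC47 family, the multidrug and toxin extrusion proteins, exchange them for protons on the luminal side. The pair is best known from the proximal tubule of the kidney, where OCT2 (Slc22a2) and MATE1 (Slc47a1) secrete cationic drugs into the urine. OCT3 (Slc22a3) is a more widely expressed carrier of monoamines, OCTN1 (Slc22a4) carries the antioxidant ergothioneine, and OCTN2 (Slc22a5) takes up carnitine together with sodium.

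The finding rests on a single probe of Slc47a1, and its sequence is shown because the reading of the gene depends on it. It lies at chr11:61157910-61157969 of mm9, on the minus strand, and is written here 5′ to 3′ with its last triplet in capitals.

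Slc47a1 probe: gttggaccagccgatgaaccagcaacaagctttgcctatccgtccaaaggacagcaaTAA

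Read from its first base, the probe holds 19 triplets without a stop and ends in a stop triplet, the TAA in capitals. Its GC content was 50.0%. No other probe on the array shared a run of 20 bases with it on either strand, and the longest run in common with a probe of the other 5 genes was 6 bases. The Slc47a2 probe lies 42.8 kb away on the same chromosome, at chr11:61115133-61115192 on the same strand. The other genes also sit in neighbouring pairs. The probes of Slc22a4 (chr11:53796841-53796900) and Slc22a5 (chr11:53678550-53678609) are 118 kb apart, and those of Slc22a2 (chr17:12821245-12821304) and Slc22a3 (chr17:12613372-12613431) are 208 kb apart. None of the 6 probes shared a run of 20 bases with any other probe. The exon or UTR in which each probe lies was not analysed here.

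The labels and the study's text disagree on which genotype lies behind which dye. RNA A stands for the RNA that was read in red (AlexaFluor647) on the female array and in green (AlexaFluor555) on the male array, and RNA B for its partner. By the dye labels, RNA A came from control and RNA B from Pparg-cKO ureters. The study's text implies the opposite, with RNA A from Pparg-cKO and RNA B from control ureters. It reports decreased genes of the superficial cells, which line the lumen, in Pparg-cKO ureters. This rests on stained sections, which do not depend on the dyes, as well as on arrays. All 8 superficial cell markers listed here were dimmer in RNA A on both arrays, the direction of the study's text and not of the dye labels. The sample titles read Pparg-cKO vs control, and the authors' deposited fold scores followed RNA A over RNA B. Read in the order of the titles, these scores also put Pparg-cKO in RNA A. Each log2 ratio below is RNA A over RNA B, and a negative value thus means brighter in Pparg-cKO under the labels and brighter in control under the study's text. Each array held 157716 spots, and 70.4% to 80.4% of the spots of a channel were well above background. The median log2 ratio of the 21429 genes detected in the same RNA on both arrays was 0.00 on the female and 0.025 on the male array. RNA A gave signals of 11295 (female) and 12888 (male) for the targeted gene Pparg, and RNA B gave 7430 and 7872, so that its log2 ratio averaged 0.66 ± 0.076 (SD over 2 arrays). Whether its probe lies in the deleted exons was not analysed here, so that this value does not check the labels.

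Slc47a1 was brighter in RNA B on both arrays. Its signals on the female array were 19.3 in RNA A against 74.2 in RNA B, and on the male array they were 17.0 and 75.6. The spots of the RNAs did not overlap on either array. On the female array the 4 spots ranged from 14.2 to 21.9 in RNA A and from 71.1 to 77.3 in RNA B. On the male array the spots of RNA A reached at most 17.5 and those of RNA B ranged from 72.3 to 80.4. Every spot in either RNA was well above background. RNA B was brighter by 3.84-fold on the female array and by 4.44-fold on the male array, and the log2 ratios of −1.94 and −2.15 gave a mean of −2.04 ± 0.15 (SD over 2 arrays). The mean was thus far larger than the spread between the arrays, on which the dyes were opposite. The spots of 1 probe share an RNA pool and are not replicates of the genotype. In pooled whole ureters, fewer cells that express the gene and less of its RNA per cell cannot be told apart.

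**Figure D1:**
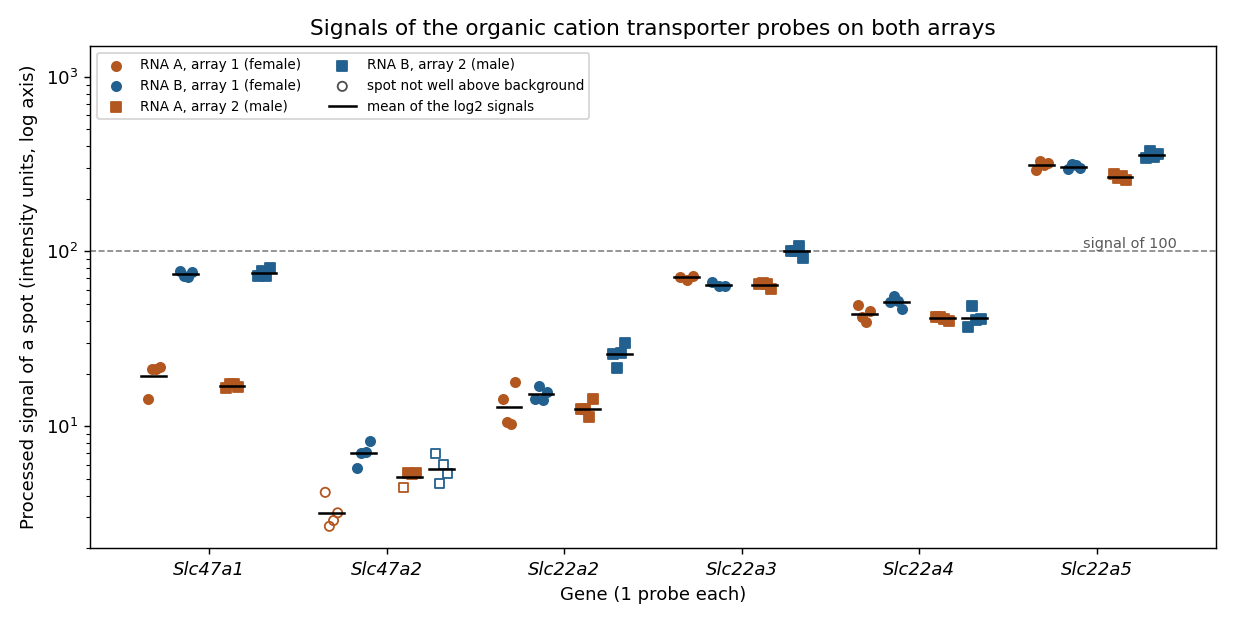
Processed signal (intensity units, log axis) of each kept spot of the 6 probes, for RNA A (brown) and RNA B (blue) on array 1 (circles) and array 2 (squares), with bars at the mean of the log2 signals and open symbols for spots not well above background. The Slc47a1 spots of RNA B lie between 71.1 and 80.4 and those of RNA A between 14.2 and 21.9, whereas levels of different probes cannot be ranked against each other.

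Slc47a1 did not pass the filter as applied here to the processed signals, which kept genes with a change of 1.5-fold or more, alike in direction on both arrays, and a brighter signal of 100 or more. Its fold change was past this limit but its signals in RNA B were below 100. The thresholds are those of the study's methods, but the study set them on intensities of another scale, which were not used here, so that the outcome does not speak on the study's own selection. Of all 29982 genes, 69 (0.23%) passed in RNA B and 47 (0.157%) in RNA A, and no member was among them. When the threshold of 100 was exchanged for spots well above background in the brighter RNA, 148 genes (0.494%) passed in RNA B and 128 (0.427%) in RNA A. Slc47a1 was then the single member that passed, in RNA B. Among the 1305 tested genes whose brighter signal lay from 50 to 100 on both arrays, 15 (1.15%) were at least 1.5-fold brighter in RNA B on both arrays, and Slc47a1 had the lowest mean ratio of the 1305. These shares describe the background of the value that chose the gene.

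The second extrusion carrier, Slc47a2, was at the limit of detection. Its signals were 3.18 in RNA A against 6.99 in RNA B on the female array, and 5.12 and 5.70 on the male array. In RNA A, 0 of 4 spots on the female array and 3 of 4 on the male array were well above background, and in RNA B 4 of 4 and 0 of 4. The detected spots were in the green channel each time, so that neither RNA was detected on both arrays and no fold is given. A change of Slc47a2 was therefore not measurable with this probe.

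No detected gene around Slc47a1 shared its ratio. Of the 14 genes with a probe within 250 kb, 12 were detected in the same RNA on both arrays, and 0 of these were at least 1.5-fold brighter in the same RNA on both. Their mean log2 ratios lay between −0.26 and 0.37, against −2.04 for Slc47a1. The lowest mean was that of Aldh3a1, an aldehyde dehydrogenase gene 126 kb away, whose log2 ratio was 0.57 on the female array and −1.09 on the male array. The highest was that of Tnfrsf13b, a receptor gene of B lymphocytes, with 0.30 and 0.45.

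**Figure D2:**
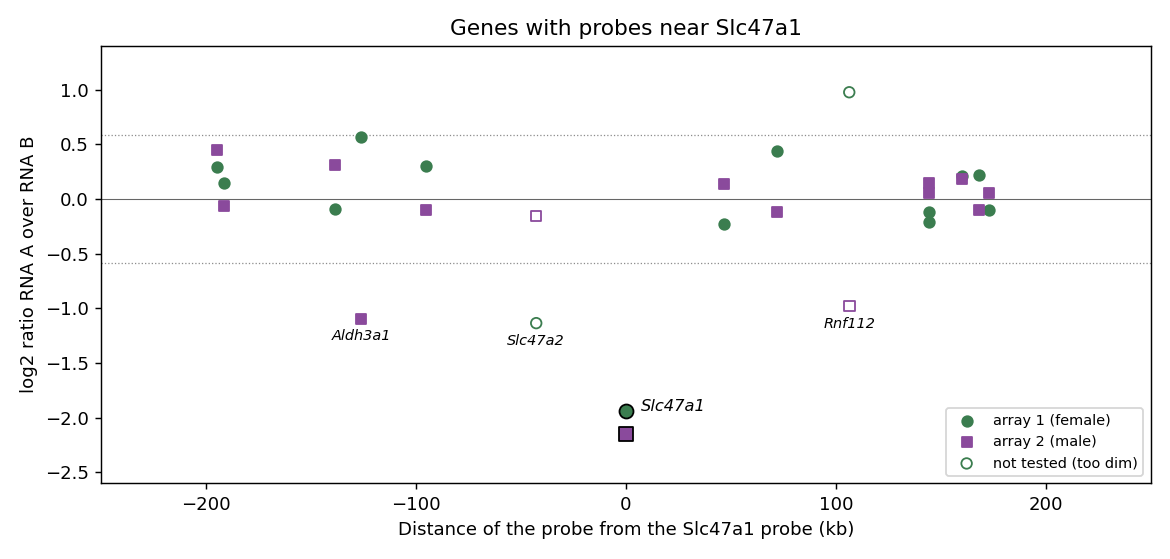
Log2 ratio of RNA A over RNA B on array 1 (circles) and array 2 (squares) of every gene with a probe within 250 kb of the Slc47a1 probe, by distance in kb, with dotted lines at 1.5-fold and open symbols for genes not detected in the same RNA on both arrays, from whose ratios nothing is read. Slc47a1 lies at −1.94 and −2.15, and the 12 detected neighbours have means between −0.26 and 0.37.

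The carriers for uptake of organic cations did not repeat the pattern of Slc47a1 on both arrays. Slc22a2, the partner of MATE1 in the kidney, had signals of 12.9 in RNA A against 15.3 in RNA B on the female array, and of 12.6 and 25.7 on the male array. Its spots overlapped between the RNAs on the female array and did not overlap on the male array, and all of them were well above background. The log2 ratio was −0.24 on the female array and −1.03 on the male array, with a mean of −0.64 ± 0.55 (SD over 2 arrays). The spread between the arrays was thus nearly as large as the mean.

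Slc22a3 had signals of 71.1 in RNA A against 64.3 in RNA B on the female array, from 3 kept spots, and of 64.2 and 100.1 on the male array. RNA A was the brighter in all 3 spots on the female array and RNA B in all 4 on the male array, without overlap between the RNAs on either array. The log2 ratios were 0.14 and −0.64, and the mean of −0.25 ± 0.55 (SD over 2 arrays) was smaller than its spread. The red channel was the brighter both times. Since the female and the male array also had opposite dyes, dye and sex cannot be told apart.

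The carriers of zwitterions and carnitine were close to equal in both RNAs. Slc22a4 had signals of 44.0 in RNA A against 51.2 in RNA B on the female array and of 41.4 and 41.7 on the male array. Its spots overlapped between the RNAs on both arrays, and its mean log2 ratio was −0.12 ± 0.15 (SD over 2 arrays). Slc22a5 was the single member with signals above 100 in both RNAs of both arrays, at 313 and 306 on the female array and at 266 and 356 on the male array. Its spots overlapped on the female array, and on the male array those of RNA B (342 to 378) lay above those of RNA A (258 to 277). The log2 ratios of 0.031 and −0.42 gave a mean of −0.19 ± 0.32 (SD over 2 arrays), which was within the spread between the arrays.

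Within the group, Slc47a1 was thus the single detected gene whose log2 ratio was beyond 1.5-fold on each of the arrays. The means of the 4 other detected members lay between −0.64 and −0.12. The share of all tested genes with a mean below 0 was not counted, so nothing is read from the sign of these means. RNA B was the brighter on both arrays for Slc22a2 and Slc22a4, but not for Slc22a3 and Slc22a5. On the female array their ratios lay from −0.24 to 0.14 and on the male array from −1.03 to −0.011. Of the 21429 genes tested, RNA B was the brighter on both arrays in 3731 (17.4%) and RNA A in 4627 (21.6%).

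**Figure D3:**
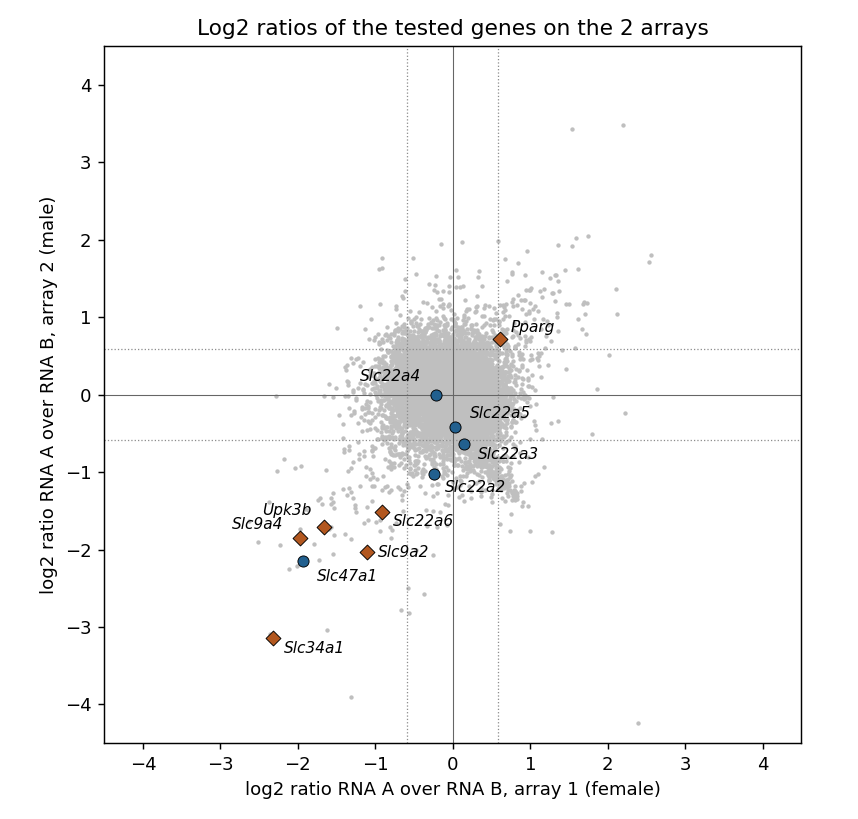
Log2 ratio of RNA A over RNA B on array 1 (horizontal) and array 2 (vertical) for the tested genes (grey; 1 of 21429 lies outside the axes), with the 5 detected members as blue circles and other named genes as brown diamonds, and dotted lines at 1.5-fold. Slc47a1 lies in the lower left part near Slc9a4, with Slc34a1 further out, and the 4 other members lie inside the grey cloud or at its edge.

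A lower mean log2 ratio than that of Slc47a1 was found for 9 tested genes, which were named after their values were seen. In 4 of these RNA A was well above background on both arrays: the gasdermin genes Gsdmc3 (mean −2.21) and Gsdmc4 (−2.08), Hsd17b2 (−2.19) and Sele (−2.11). In the other 5, RNA A was not well above background on at least 1 array, so that their ratios depend on signals near background and were not ranked. They were Slc34a1, the sodium-phosphate carrier of the proximal tubule, Mep1a and Mep1b, which encode the subunits of the brush border protease meprin, Gsdmcl-ps and Xlr5b.

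The genes whose pair of ratios was nearest to that of Slc47a1, by Euclidean distance over the 2 arrays, were Sele (distance 0.095), Hsd17b2 (0.206), Sptssb (0.207), Aqp3 (0.268), Slc9a4 (0.306), Gsdmc4 (0.358), F630003A18Rik (0.398) and Fam183b (0.421). Sele encodes the adhesion receptor E-selectin of endothelial cells, Hsd17b2 an enzyme that inactivates sex steroids, Sptssb a subunit of the first enzyme of sphingolipid synthesis, and Aqp3 a channel for water and glycerol. Of these 8 genes, 7 passed the filter in RNA B, and Slc9a4 did not because its signals were below 100. With 2 arrays, likeness of this kind describes the size of the ratios and no more.

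Among 78 genes of other transporters and their partners, 64 were detected in the same RNA on both arrays. The filter was passed by 1 of them in RNA A, the targeted gene Pparg, and by 0 in RNA B. Under the rule on background, 1 gene passed in RNA A, again Pparg, and 3 in RNA B. By limma, 0 genes of the lists in RNA A against 1 in RNA B had a Benjamini-Hochberg adjusted p under 0.05, against 27 (0.126%) and 40 (0.187%) of all 21429 tested genes. The median of the mean log2 ratios over the 64 genes was −0.053, against 0.0067 over all tested genes.

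The 3 genes that passed in RNA B were Slc9a4, Slc9a2 and Slc22a6. Slc9a4 and Slc9a2 encode sodium-proton exchangers, a family that supplies protons to the luminal space. Slc9a4 had signals of 16.4 in RNA A against 64.1 in RNA B on the female array and of 22.3 and 80.0 on the male array. Its mean log2 ratio was −1.91 ± 0.088 (SD over 2 arrays) and its limma adjusted p was 0.0138, with 0.00714 to 1 over 8 other settings. It was the gene called by limma in the lists. Slc9a2 had signals of 10.2 and 22.0 on the female array and of 6.18 and 25.2 on the male array, a mean of −1.57 ± 0.65 (SD over 2 arrays; limma adjusted p = 0.0563, range over the settings 0.0385 to 1). Of the 5 exchangers listed, 4 were detected, with a median of −0.94, and Slc9a3 was not detected.

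Slc22a6 encodes OAT1, the basolateral carrier of organic anions in the proximal tubule. It had signals of 7.68 in RNA A against 14.4 in RNA B on the female array and of 8.81 and 25.1 on the male array, and RNA A was well above background on the male array alone. Its mean log2 ratio was −1.21 ± 0.42 (SD over 2 arrays; limma adjusted p = 0.0985, range over the settings 0.079 to 1). Slc22a6 counted as detected through RNA B alone, which favours a ratio below 0, so nothing is read from this p. The median of the 11 detected genes among 21 other SLC22 carriers was −0.13. The brightest of them, Slc22a17, a receptor for siderophore-bound iron, had a mean of −0.35 ± 0.049.

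In the remaining lists 0 genes other than Pparg passed either filter. The 7 detected ABC pumps, which extrude drugs with energy from ATP, had a median of 0.026, and their brightest gene, Abcg2, had log2 ratios of 0.37 and −0.066. The 11 genes of carnitine synthesis and use, the pathway that Slc22a5 feeds, were all detected and had a median of −0.050, with 0.24 and −0.057 for the brightest gene, Crot. The 5 detected genes for the breakdown of amines had a median of 0.062. The 4 genes of PDZ proteins and their binding partners at the luminal membrane had a median of −0.0056, and Pdzk1ip1, the brightest, had a mean of 0.15. The 8 regulators, with Pparg the brightest, had a median of −0.042.

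The 14 detected carriers of amines, choline and thiamine had a median of 0.048, and Slc44a2, a choline carrier and the brightest, had ratios of −0.18 and 0.0043. Of the monoamine carriers in this list, 4 had a ratio below 0 on the female array and above 0 on the male array. Slc18a1 and Slc18a2, which load monoamines into vesicles, had log2 ratios of −0.57 and 0.77 and of −0.46 and 0.66, in the order of the arrays. Slc6a2, the noradrenaline carrier, had −0.74 and 0.83, and Slc29a4, a plasma membrane monoamine carrier, had −0.52 and 0.52. These 4 genes were singled out after their values were seen. Slc6a4, the serotonin carrier, did not share their pattern, with −0.0062 and −0.61, and Slc6a3 was not detected. The 4 markers of autonomic neurons and glia had medians of −0.069 and 0.36 on the arrays.

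**Figure D4:**
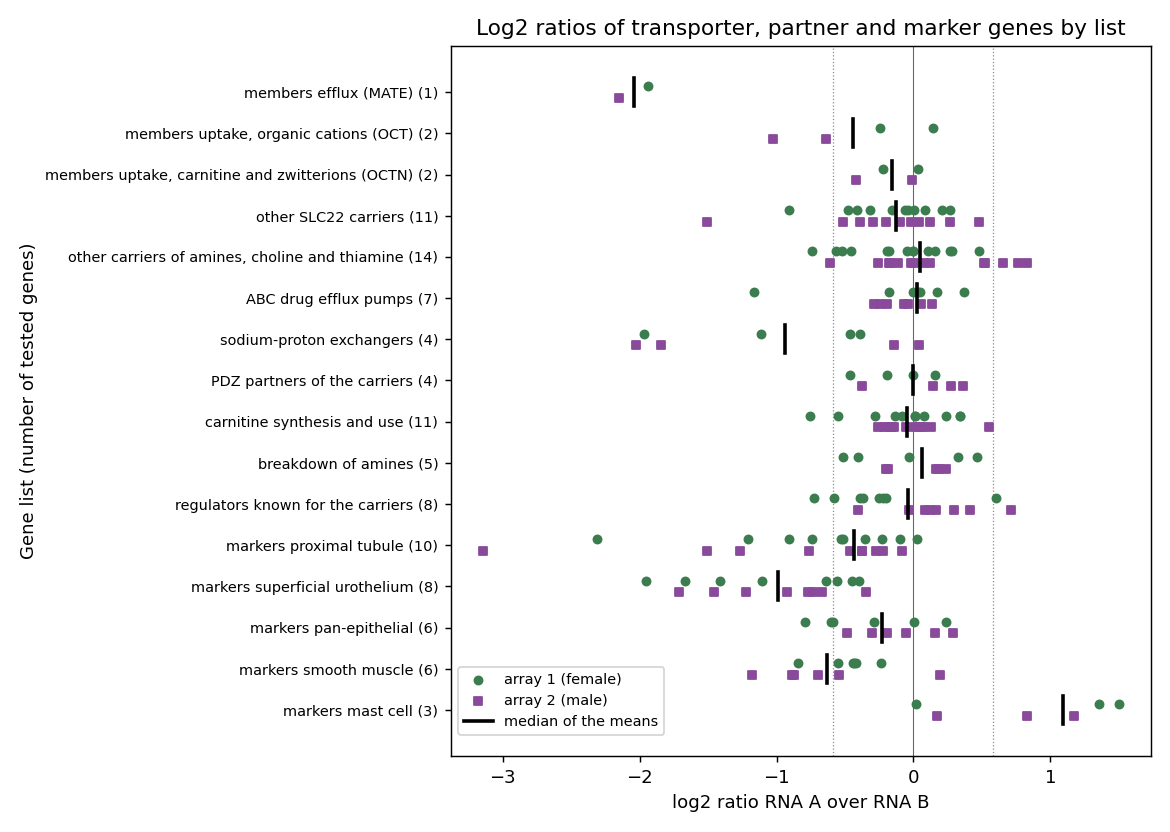
Log2 ratios of RNA A over RNA B on array 1 (circles) and array 2 (squares) for the detected genes of each list, with the number of genes in brackets, black bars at the median of the gene means and dotted lines at 1.5-fold; Slc22a6 stands both among the SLC22 carriers and among the proximal tubule markers. The bars of the member lists lie at −2.04 (MATE, Slc47a1 alone), −0.44 (OCT) and −0.16 (OCTN). Those of the other carrier and partner lists lie between −0.13 and 0.062 except for the exchangers at −0.94. The bars of the superficial urothelium and the proximal tubule lie at −0.99 and −0.43.

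The kidney's proximal tubule is the segment known for Slc47a1. Of 12 markers of it, 10 were detected, and the log2 ratio of 9 of these was below 0 on both arrays (median −0.43). Over all tested genes this share was 17.4%. Slc34a1, Slc22a6, Slc5a2, Slc13a3 and Slc5a12 counted as detected through RNA B alone, which favours a ratio below 0. The count is therefore not read further, and neither are the calls and limma p-values of these genes. The filter was passed by 0 of the 12, the rule on background by 3 in RNA B, and 1 was called by limma. Slc34a1 had signals of 6.20 in RNA A against 30.8 in RNA B on the female array and of 4.20 and 37.2 on the male array, a mean log2 ratio of −2.73 ± 0.59 (SD over 2 arrays; limma adjusted p = 0.0122, range over the settings 0.00619 to 1). RNA A was well above background for this gene on the male array alone. Besides Slc22a6, Slc5a2, the sodium-glucose carrier of the early tubule, was past 1.5-fold in RNA B on both arrays, with ratios of −1.21 and −0.76, and its RNA A too was well above background on the male array alone. The receptors for filtered protein, Lrp2 and Cubn, had means of −0.35 and −0.45. Kap and Slc22a8 were not detected. The signals of the 12 markers summed to 2923 and 3496 in RNA A and to 3017 and 4235 in RNA B, and most of each sum came from Aqp1, which endothelial cells also express and whose mean was −0.099. Of 4 markers of the loop and distal tubule, Umod, Slc12a1 and Slc12a3 were not detected, and the 4 markers of nephron progenitors had a median of −0.14. The part of kidney tissue in the ratio of Slc47a1 was not tested.

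Among the cell types of the ureter itself, the markers of superficial cells were brighter in the RNA in which Slc47a1 was. The superficial cells line the lumen of the urothelium, and RNA B was the brighter on both arrays for all 8 of their markers (median log2 ratio −0.99). Of these, 5 passed the filter (Upk3a, Upk1a, Psca, Upk3b and Krt20, with means from −1.69 to −0.70). Their signals summed to 51238 and 49735 in RNA A and to 83373 and 87611 in RNA B. The 4 basal markers had a median of 0.44, and for 3 of them RNA A was the brighter on both arrays. The 6 pan-epithelial markers had a median of −0.23. RNA B was the brighter on both arrays for 5 of 6 smooth muscle markers (median −0.63), and 0 genes of these 3 lists passed the filter. The part of the superficial cells in the ratio of Slc47a1 was likewise not tested, and the arrays do not say which cells held the RNA.

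Other tissues gave further values beside these. The 4 liver markers had medians of 0.11 on the female array and −1.36 on the male array, and the 4 steroidogenic markers 0.13 and −0.90. Of the 5 detected members, all but Slc22a4 had the lower log2 ratio on the male array, but those of Slc47a1 were close (−1.94 and −2.15). The share of all tested genes with the lower ratio on that array was not counted, so nothing is read from this. Sex and dye cannot be told apart here either. Of 4 mast cell markers, Cpa3 (mean 1.34) and Cma1 (1.09) passed the filter in RNA A, Kit had a mean of 0.094 and Mcpt4 was not detected. Of 4 collecting duct markers, Fxyd4 (1.16) passed in RNA A, while Aqp2 had a mean of 0.12, Scnn1b −0.32 and Scnn1g −0.55, and the list a median of −0.10. The lists of podocyte, endothelium, macrophage, red blood cell and ureteric fibroblast markers had medians from −0.31 to 0.16, and 0 of their genes passed the filter with the same direction on both arrays. The part of these cells in the values of the members was not tested.

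The direction of Slc47a1 held on both arrays under every processing tried, while its size was smaller under 1 of them. With normexp correction and loess from the unnormalised signals, the log2 ratios were −1.21 and −1.38, a mean of −1.29. This setting changes the background correction and the normalisation and adds an offset of 50 to all signals, and which of these moved the value was not tested. Under the other scalings and the authors' deposited fold changes, the mean lay between −2.06 and −1.97. The sign of Slc22a4 on the male array changed with the setting, at −0.011 from the processed signals and 0.073 from the deposited table. That of Slc22a5 on the female array was −0.020 with normexp and loess, in place of 0.031.

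**Figure D5:**
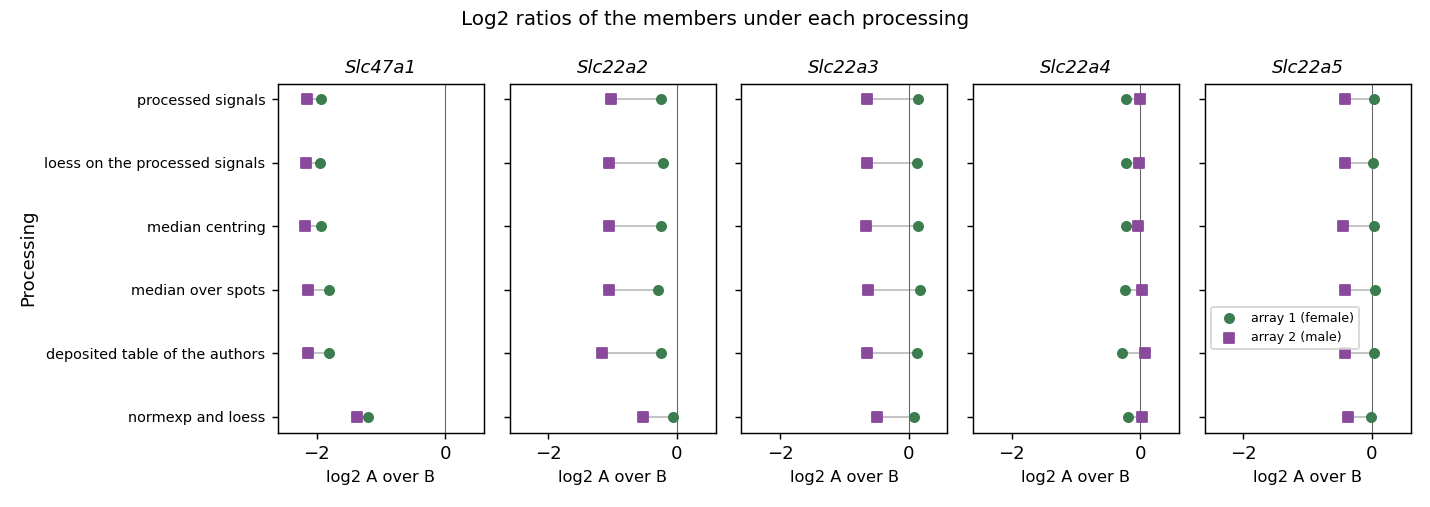
Log2 ratio of RNA A over RNA B on array 1 (circles) and array 2 (squares) of the 5 detected members under 6 ways to process the signals. Slc47a1 stays between −2.18 and −1.80 except with normexp and loess, at −1.21 and −1.38, and Slc22a4 stays close to 0 on array 2.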

How the data were processed

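RNA of pooled ureters was compared on 2 dual-colour arrays. Samples were grouped by the labels. Titles and protocols give E16.5, although the second channel's stage label reads E14.5. The arrays shared 1 slide and 1 scan, which therefore could not serve as a block. With 1 array per sex the p-values measure the spread between these samples.

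Per the file headers and the submitters' processing notes, Agilent Feature Extraction 10.7.3.1 made the deposited intensities, which were background-subtracted, given surrogate scores close to background (on the female array in 7.98% of green and 15.2% of red spots) and dye-normalised by a linear step and LOWESS. For dim probes the ratio depends on these steps. The log10 ratio (red over green) that was deposited equalled that of the intensities within 0.001 for 88.9% of spots. The authors' deposited table holds signed fold scores. The sample titles read Pparg-cKO vs control, but which RNA was divided by which is not stated for the scores themselves. Its medians were 1 and 1, and its log2 values followed RNA A over RNA B across probes with signals of 100 in both RNAs (Pearson r 0.997 on either array, across probes, which are not independent replicates). It was used as an alternative, and its sign as A over B was taken from that comparison.

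Control spots and flagged spots (5705 and 5579) were left out, and the log2 intensities of a probe's spots, in general 4, were averaged. Names came from RefSeq (GRCm38.p6, names only) for 28328 probes and from the file for 11101, and positions from the file. The brightest probe stood for a gene. A probe counted as well above background if this held for a share of 0.5 of its spots or more. Tested genes were those well above background in the same RNA on both arrays. limma 3.58.1 (lmFit, eBayes, R 4.3.3) gave Benjamini-Hochberg adjusted p-values at 0.05 and served the lists and the background only. The functions were tested on simulated data. Plots were made in matplotlib 3.10.9. The precision is limited by the number of arrays, 2.

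The members, the lists and the tests were chosen with earlier results of these data known. Named were the 6 members, list genes past a filter, the brightest gene of each list, the 8 genes nearest to Slc47a1, Pparg and markers past 1.5-fold. A few genes that this rule names are not reported here. The alternatives were other scalings, background correction, rules for spots and thresholds, the deposited table and leaving out each array. Centring on all genes and detection in either RNA were chosen after seeing the data.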

Additional observations from a re-analysis of the deposited data

Results flagged for a closer look

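In 9 of the 18 carrier, partner and regulator genes checked, the female and the male array gave log2 ratios of opposite sign, as in 13071 of all 21429 tested genes (61%). With 1 array per sex, no difference was tested, and sex and dye cannot be told apart.

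The difference, female minus male, was 0.78 for Slc22a3, 0.45 for Slc22a5, 0.44 for Abcg2 and 0.30 for Crot, in which red was the brighter channel each time. It was −0.18 for Slc44a2, −1.57 for Slc6a2, −1.33 for Slc18a1, −1.11 for Slc18a2 and −1.04 for Slc29a4, in which green was. No such value was found for Slc47a1, whose ratios were −1.94 and −2.15.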

How the results depend on the processing

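The mean log2 ratio of Slc47a1 lay between −2.06 and −1.97 with loess, either centring, the deposited table or the median over spots, and was −1.29 with normexp and loess. Its single arrays gave −2.15 and −1.94. Keeping all spots and averaging probes could not change it. The means of the 4 other detected members moved by less than 1 SD under these scalings, an SD that is wide over 2 arrays. With a single array, Slc22a3 had 0.14 and −0.64 and Slc22a5 0.031 and −0.42. Slc47a2 was not followed over the settings, because neither RNA was detected on both arrays.

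The counts of the filter followed its thresholds by construction. With a minimum signal of 200, 28 genes passed in RNA A. With well above background the counts were 128 in RNA A, 148 in RNA B and 390 in opposite directions, in place of 47, 69 and 129. Without an intensity threshold they were 193, 239 and 3292, and at 2-fold 19, 29 and 0. With either array left out they were 301 to 321 (RNA A) and 488 to 637 (RNA B). Of the 78 list genes, 1 passed in RNA B at a signal of 50, 3 with well above background (and 1 in opposite directions) and 4 without a threshold (and 6). In RNA A the count of 1, Pparg, was 0 with normexp and loess, with centring on all genes and at 2-fold. With either array left out, 1 to 3 list genes (RNA A) and 0 to 2 (RNA B) passed.

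The limma counts of 27 and 40 genes, in RNA A and RNA B, became 9 and 24 with loess, 1 and 0 with normexp and loess, and 1 and 0 with detection in either RNA. They were 0 and 0 with the deposited table and 0 and 0 without the filter on dim probes, where 262 and 305 and then 220 and 274 genes had an unadjusted p under 0.05 in limma. The cause was not tested. limma was not run with 1 array, which leaves no residual degree of freedom. Each array sets a Pparg-cKO pool against a control pool of the same sex. The limma fit used these ratios and thus this pairing, and no pairing beyond the ratio exists. Signals near background limit Slc47a2 and the lists' dim genes.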
